A study of Mus musculus with 18 samples.

Results

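The cytosolic ribosome is built from ribosomal RNA and a fixed set of ribosomal proteins, and the genes for these proteins were described here in prostates of TRAMP mice. The genes were chosen by symbol: protein-coding mouse genes named Rpl or Rps followed by a digit, together with Rplp0, Rplp1, Rplp2 and Rpsa, without pseudogenes and without the Rps6k kinases. This gave 86 of the 55469 gene IDs in each table, of which 43 encode proteins of the large subunit, 31 encode proteins of the small subunit, 3 (Rplp0, Rplp1 and Rplp2) encode the acidic P-stalk that recruits translation factors, and 9 are named as paralogs or restricted forms (Rpl3l, Rpl7l1, Rpl10l, Rpl22l1, Rpl36al, Rpl39l, Rps19bp1, Rps27l and Rps27rt). Rps19bp1 fits the symbol rule but encodes a binding partner of the RPS19 protein, and Rpl7l1 encodes a nucleolar relative of RPL7. Fau and Rack1 also encode ribosomal proteins but have other names and were kept as comparators.

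Total RNA came from the ventral and lateral lobes of male mice on a background labelled C56NL/6N, at 10 and 30 weeks of age. Every mouse carried TRAMP (TRAMP +/-), a probasin-driven transgene that expresses the SV40 T antigens in prostate epithelium. WT-TRAMP mice were ELAC2+/+. KO-TRAMP mice were ELAC2-/-, with an exon removed by a Cre recombinase under the probasin promoter, so that stroma kept the gene. A537T-TRAMP mice were homozygous in the whole body for the ELAC2 A537T protein change. ELAC2 is the nuclease that trims the 3′ ends of precursor tRNAs, and the comparisons ask how its loss or its variant alters the transcriptome at each age. Each of the 6 groups had 3 libraries, named here by the number in the column headers: WT-TRAMP were 1 to 3 at the younger age and 10 to 12 at the older, A537T-TRAMP were 4 to 6 and 13 to 15, and KO-TRAMP were 7 to 9 and 16 to 18. The same WT-TRAMP libraries served both lines of an age, so the KO-TRAMP and A537T-TRAMP comparisons are not independent.

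Ribosomal protein mRNAs are among the most abundant in dividing and secretory cells, and subunit assembly needs their products in matched amounts. Most begin with a terminal oligopyrimidine (TOP) tract, a C followed by a run of pyrimidines at the first transcribed base, through which mTOR and LARP1 regulate their translation and stability. Many have intronless pseudogene copies, which can capture or share reads. Paralogs such as Rpl22l1 can take the place of their parent protein in the ribosome, and the RPL22 protein is known to restrain Rpl22l1 mRNA.

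Libraries held between 9380174 and 14830104 estimated reads, recovered as whole numbers from the deposited normalised counts. Between 10.5% and 17.7% of them came from the 7SL RNA genes Rn7s1 and Rn7s2. Percentages of reads are therefore shares of the estimated reads of all gene IDs, these 7SL reads included, rather than of mRNA. The estimates for a WT-TRAMP library differed between the lines it served. Library 1 had 319768 reads of members in the KO-TRAMP comparison and 313960 in the A537T-TRAMP comparison, with 12.5% and 14.9% from Rn7s2. The targeted gene Elac2 was at 85.6% of the WT-TRAMP mean in KO-TRAMP at 10 weeks and at 87.1% at 30 weeks, with overlapping groups. A count over the whole gene, in tissue that keeps intact stroma, does not check the loss of the exon. All luminal and basal epithelial marker genes were detected in every library. None of the 10 luminal genes passed limma with Benjamini-Hochberg adjustment in any comparison. In A537T-TRAMP at 10 weeks only 1 of all 15438 genes tested passed. There the luminal genes took 0.343%, 0.195% and 0.284% of reads in libraries 4 to 6, against 0.317% to 0.343% in WT-TRAMP. The value of library 5 was the lowest of the series. In these bulk samples, fewer cells of a type and less RNA per cell cannot be told apart.

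The TOP-like letters CTTTCC were searched in the window from 250 bases before to 50 bases after the annotated start, for the 66 members with a RefSeq promoter (GRCm38.p6). On the sense strand, which has the sequence of the mRNA, CTTTCC was present in 27 members (40.9%), against 4328 of the 27025 genes with such a window. On the other strand it was present in 13 (19.7%, against 16.1% of all genes). A second pyrimidine word, CTCTTTC, can overlap the first by 5 letters. It was present in 13 members (19.7%, against 1244 of the 27025 genes) on the sense strand and in 5 (7.58%, against 4.91% of all genes) on the other. The ETS-type word CCGGAAGT was present in 9 members (13.6%, against 2.35%), and its complement in 3 (4.55%, against 2.12%). Members where CTTTCC lies at the start itself are shown as 15 bases on either side of the annotated start, with CTTTCC in capitals. Rpl28 and Rps10 are shown because they are named among the results below, and Rpl35a and Rpl38 as further examples of the tract.
Rpl28, chr7:4792950-4792979, plus strand: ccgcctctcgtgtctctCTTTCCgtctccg
Rps10, chr17:27635230-27635259, minus strand: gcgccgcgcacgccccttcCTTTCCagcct
Rpl35a, chr16:33056467-33056496, plus strand: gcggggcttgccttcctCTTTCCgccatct
Rpl38, chr11:114668565-114668594, plus strand: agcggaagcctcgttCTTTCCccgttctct

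Several members share their exonic sequence with other genes, which limits how well their reads can be assigned. The median member had 23.5% of its words of 31 bases in some other gene, and 5 members had at least 50% in a single other gene. Those were Rps27rt (91.6%, in Rps27), Rplp1 (72.5%, in Gm10073), Rpl36 (71.4%, in Rpl36-ps12), Rps3a1 (68.2%, in Rps3a2) and Rpl19 (53.6%, in Rpl19-ps11), and their counts are uncertain. Rps27rt, an intronless copy of Rps27, is the closest pair among members. The pair is shown in capitals where the sequences become identical at the transcribed end, a run of 38 bases of which 24 are printed.
Rps27, chr3:90213624-90213653, minus strand: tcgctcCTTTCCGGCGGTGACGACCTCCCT
Rps27rt, chr9:114982716-114982745, minus strand: cccttgCTTTCCGGCGGTGACGACCTCCCT
Reads assigned to the 296 rows left out as pseudogenes were few. They made up between 0.864% and 1.09% of the reads of members and pseudogenes together in all libraries.

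Levels between genes were compared per kilobase of annotated exons, in WT-TRAMP at 10 weeks (mean ± SD, n = 3). The 77 members that are neither paralogs nor restricted forms had a median of 1969 normalised counts per kilobase, and the 90th percentile was 5.78 times the 10th. Rps3a1 was the highest with 7309 ± 814, followed by Rplp0 (6889 ± 770), Rplp1 (6745 ± 839) and Rpl10 (6725 ± 1097), and these neighbours did not differ beyond their spread. Rps15a was the lowest of the 77 with 382 ± 47.2. The annotated exon length is far longer than the mature mRNA for some members (6270 bases for Rps15a), and with the longest protein-coding transcript as the length Rpl10 was the highest with 16147 ± 2634.

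The lowest places in this order were held by genes named as paralogs or restricted forms. Of these genes, Rpl36al (1278 ± 137) and Rps27l (947 ± 78.9) lay within the range of the other members. Rpl22l1 had 224 ± 3.56 normalised counts per kilobase against 687 ± 33.7 for its parent Rpl22. Both the gap and the order depend on the length used. Per kilobase of the longest protein-coding transcript Rpl22l1 and Rpl22 had 806 ± 12.8 and 975 ± 47.8. By that length Rpl22l1 lay above the lowest of the 77 other members (463). Rpl7l1 had 216 ± 18.2 per kilobase of exons. Rps27rt (92.3 ± 4.78) and Rps19bp1 (83.9 ± 10.3) were lower still. The germline paralog Rpl10l was listed at 0 reads in all 18 libraries, which allows up to 3 reads in each. Rpl39l, another germline paralog, had 2 reads in library 17 and 0 elsewhere, and the striated muscle form Rpl3l had between 0 and 5 reads. These 3 did not reach the mean normalised count of 10 needed for testing, so 83 members were tested in every comparison.

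**Figure D1:**
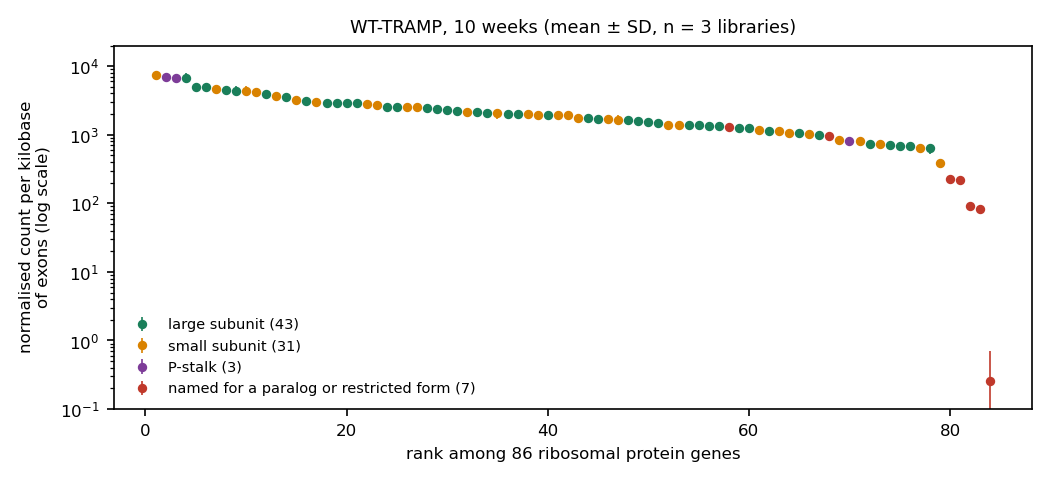
Normalised counts per kilobase of exons (log scale) by rank among 86 ribosomal protein genes, as mean ± SD of the 3 WT-TRAMP libraries at 10 weeks, coloured by class, without the 2 genes at 0. Members of both subunits and the P-stalk lie between 382 and 7309. Of the 7 drawn genes named as paralogs or restricted forms, 5 lie below all of those.

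The members together took between 1.73% and 3.15% of reads, and this share varied within groups. In WT-TRAMP at 10 weeks it was 2.44%, 2.74% and 2.94% in libraries 1 to 3, and in KO-TRAMP it was 3.10%, 2.48% and 2.94% in libraries 7 to 9. The A537T-TRAMP libraries 4 to 6 had 3.15%, 1.73% and 2.45%, the highest and the lowest of the series. At 10 weeks the groups therefore overlapped in both lines. At 30 weeks the share was 2.29%, 2.58% and 2.44% in libraries 10 to 12 and 2.76%, 2.66% and 2.69% in the KO-TRAMP libraries 16 to 18. All KO-TRAMP libraries at this age lay above all WT-TRAMP libraries, with SDs of 0.0498 and 0.144 percentage points (n = 3). The A537T-TRAMP libraries 13 to 15 had 2.76%, 2.24% and 2.63%, which overlapped the WT-TRAMP shares of that comparison (2.30%, 2.59% and 2.46%).

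Seminal vesicle secretory genes moved with the lowest share. They took 9.05% of the reads of library 5, against at most 0.000459% in WT-TRAMP at 10 weeks, and without them in the total the member share of library 5 was 1.90% and still the lowest. In library 13 they took 5.45%, and there members took 2.76%. WT-TRAMP libraries carried such reads too. In the KO-TRAMP comparison at 30 weeks they took 4.35% of library 10 and 1.90% of library 12, but 0.000106% of library 11. KO-TRAMP libraries at that age had at most 0.266%. Without these genes in the total, the member share was at most 2.58% in WT-TRAMP and at least 2.66% in KO-TRAMP. The group means then lay closer together, and the groups still did not overlap.

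**Figure D2:**
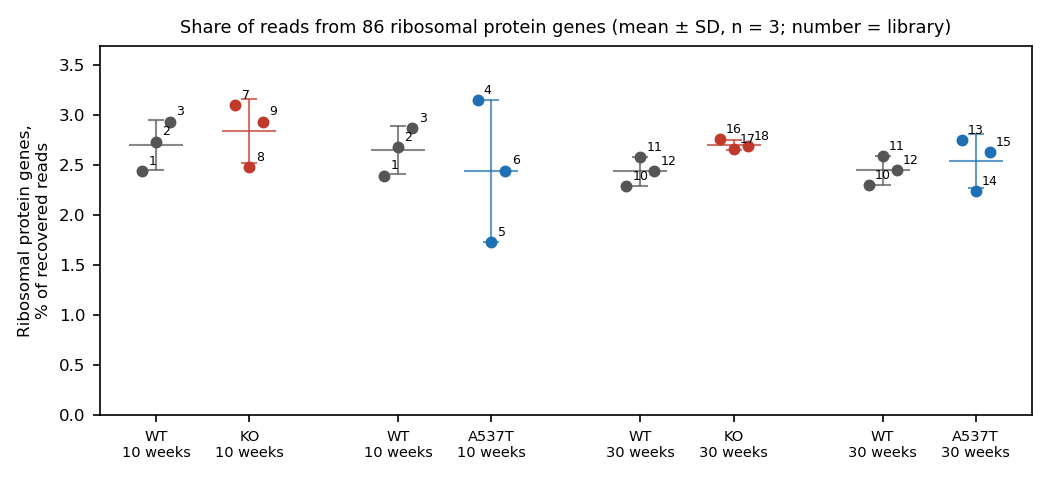
Share of recovered reads from the 86 ribosomal protein genes, in percent, for each library (points, numbered), with the group mean and SD (n = 3). WT-TRAMP libraries appear in both lines of an age, at slightly different shares, because their estimated reads differed between the comparisons. Library 5 is the lowest at 1.73% and library 4 the highest at 3.15%, both A537T-TRAMP at 10 weeks.

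Members moved as a block within a library. On the log2 scale, with each member set against its WT-TRAMP mean, the median member of library 1 was at −0.16 with 4 of 83 members above 0, and that of library 3 was at 0.13 with 79 above 0. Library 5 was at −0.37 with 7 members above 0, while library 4 of the same group was at 0.21 with all 83 above 0. The large and small subunits moved alike in these libraries, with medians of −0.39 and −0.32 in library 5 and of 0.21 and 0.19 in library 4. The median within-group SD of a member was between 0.10 and 0.23 log2 in the 4 tables, and after the median member of each library was subtracted it was between 0.071 and 0.085.

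**Figure D3:**
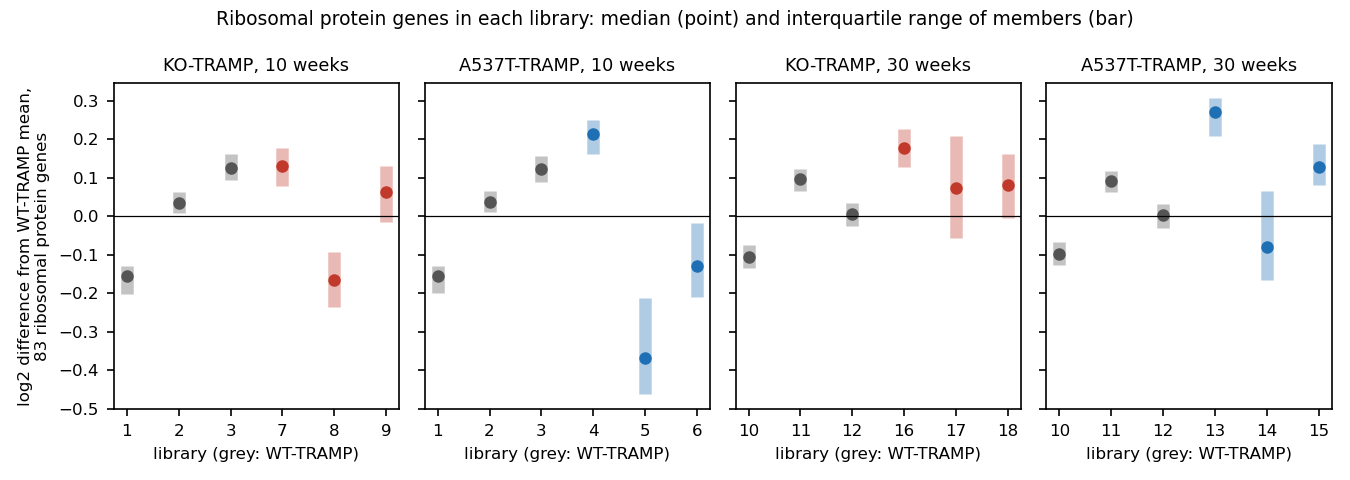
log2 difference of ribosomal protein genes from their WT-TRAMP mean in each library of the 4 tables: point, median of 83 members; bar, interquartile range of members; grey, WT-TRAMP; red, KO-TRAMP; blue, A537T-TRAMP. The median ranges from −0.37 in library 5 to 0.27 in library 13. Bars are narrower in WT-TRAMP, whose own mean is the reference, than in every mutant library, and widest in libraries 5, 14 and 17.

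In KO-TRAMP at 10 weeks ribosomal protein genes were close to WT-TRAMP. By limma with Benjamini-Hochberg adjustment over all genes, none of the 83 members changed, and 0.0129% of the 15451 genes tested did. At an unadjusted p under 0.05 there was 1 member, which was lower, against 6.64% of all genes in either direction and 2.93% on the lower side, and edgeR and DESeq2 on the recovered reads also called none. The median log2 fold change of members was 0.0092, with 48 of 83 higher, against −0.0060 for all genes, of which 48.9% were higher. Its sign turned when library 1 (−0.070), library 7 (−0.048) or library 9 (−0.022) was omitted. Members ranged from −0.28 to 0.21, and their median standard error (SE) was 0.13. Beside this, all 10 smooth muscle genes were higher without passing the test, with 0.0838% to 0.126% of reads against 0.0450% to 0.0737%, and seminal vesicle genes took 1.63% of library 9, and their part in the member values was not tested.

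Rpl22l1, the paralog of Rpl22, stood lowest in this comparison. Its normalised counts were 439, 442 and 453 in WT-TRAMP and 357, 377 and 361 in KO-TRAMP, so that every KO-TRAMP library lay below every WT-TRAMP library. The log2 fold change was −0.28 (SE 0.10) with an adjusted p of 0.716 by limma. Rpl22l1 was the only member whose groups did not overlap, while 6.26% of all genes tested lay lower in this way and 5.77% higher. Its parent Rpl22, which encodes an RNA-binding protein of the large subunit, had 1886, 2052 and 2059 against 1964, 1714 and 1962, and these groups overlapped. Rpl41, which encodes the smallest ribosomal protein, had a log2 fold change of −0.14 (SE 0.12). On the higher side, Rps16, a protein near the decoding centre of the small subunit, had 0.21 (SE 0.12), with 2297, 1828 and 2026 in KO-TRAMP and 1573, 1808 and 1934 in WT-TRAMP. Rpl27a had 0.11 (SE 0.12), and no adjusted p of these genes was below 0.716. The P-stalk genes Rplp0, Rplp1 and Rplp2 had −0.029, 0.033 and 0.095, with overlapping groups.

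In A537T-TRAMP at 10 weeks members were spread around WT-TRAMP by the libraries described above. None changed by limma with Benjamini-Hochberg adjustment, when 0.00648% of 15438 genes did, and none had an unadjusted p under 0.05, against 7.89% of all genes. Here too edgeR and DESeq2 called no member. The median log2 fold change was −0.080, with 18 of 83 members higher, and that of all genes was −0.0078, with 49.1% higher. Libraries 4 and 5 decided this value: it was 0.042 without library 5 and −0.24 without library 4. Beside this, all 10 smooth muscle genes were higher in A537T-TRAMP without passing the test, with 0.111% to 0.250% of reads against 0.0436% to 0.0713%. Summed normalised counts of fibroblast matrix genes were 4830 to 6440 against 2773 to 4250, without overlap. Those of luminal genes (24910 to 35324 against 34193 to 36236) and proliferation genes (10399 to 18615 against 14295 to 19747) overlapped. Neuroendocrine sums (356 to 1262 against 75.5 to 357) barely overlapped. The part of these cells in the member values was not tested.

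Members that left the block are shown by their counts. Rpl28, a large subunit protein, had 1934, 2270 and 2249 in WT-TRAMP and 2542, 2321 and 2531 in A537T-TRAMP, a log2 fold change of 0.20 (SE 0.12, adjusted p = 0.617 by limma). Rps27rt had 32.1, 28.8 and 31.3 against 56.2, 40.9 and 36.7, a log2 fold change of 0.50 (SE 0.29). These were the 2 members whose groups did not overlap, both higher, as were 6.92% of all genes, while 6.53% lay lower. Rps26, which contacts the mRNA at the exit channel, had a log2 fold change of 0.19 (SE 0.14) with overlapping groups.

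Rpl39, a small protein lining the exit tunnel, had the lowest fold change among members. It had 1635, 1915 and 1825 in WT-TRAMP but 2118, 995 and 1260 in A537T-TRAMP, so that library 4 lay above WT-TRAMP and libraries 5 and 6 below (log2 fold change −0.37, SE 0.26). Rps27l, a paralog of Rps27 and a p53 target, followed the same order of libraries with 846, 419 and 449 against 690, 767 and 647 (−0.37, SE 0.27). Rps18 had −0.28 (SE 0.21) and Rpl22l1 −0.24 (SE 0.18), and without library 4 the values became −0.67 for Rpl39 and −0.69 for Rps27l. Measured against the median member of their own library, Rps18 and Rpl22l1 were lower in all A537T-TRAMP libraries than in any WT-TRAMP library. This held for 19 of 83 members, against 5.33% of all genes treated in the same way, and 3 were higher, against 3.98%. Subtracting the members' own median narrows the spread of members more than that of other genes, so these shares are a description only.

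At 30 weeks most members were slightly higher in KO-TRAMP. The median log2 fold change was 0.12, with 69 of 83 members higher, against 0.010 for all genes, of which 50.9% were higher. Omitting library 10 lowered this median to 0.067, and omitting library 16 lowered it to 0.077. None of the 83 changed by limma with Benjamini-Hochberg adjustment, while 0.213% of 16900 genes did, and edgeR and DESeq2 on recovered reads also called none. Members with an unadjusted p under 0.05 numbered 6, all higher, and 13.5% of all genes reached that level, 7.7% on the higher side. In 27 of 83 members every KO-TRAMP library lay above every WT-TRAMP library, against 10.8% of all genes tested, and none lay below, against 9.48%. Because members share their library shifts, these 27 are not 27 separate observations. Measured against the median member of each library, 5 members were higher without overlap, against 4.74% of all genes, and 9 were lower, against 21.2%. As in A537T-TRAMP at 10 weeks, these shares are a description only. The medians of the subunits were 0.13 (large, 36 of 43 higher) and 0.11 (small, 28 of 31 higher), and the 3 P-stalk genes lay between −0.047 and −0.0088.

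Members with a small unadjusted p belonged to both subunits. Rpl39 had 1433, 1631 and 1499 in WT-TRAMP and 1878, 1989 and 1818 in KO-TRAMP, a log2 fold change of 0.32 (SE 0.097, adjusted p = 0.327 by limma). Rpl27 had 1458, 1484 and 1431 against 1680, 1953 and 1796 (0.31, SE 0.097), and it passed the test without library 16 (adjusted p = 0.0456 by limma). In both genes all KO-TRAMP libraries lay above all WT-TRAMP libraries. Rpl30, which also binds its own transcript, had 1952, 2076 and 1912 against 2407, 2566 and 2254 (0.28, SE 0.096). Rpl31, at the end of the exit tunnel, had 2577, 2963 and 2797 against 3376, 3381 and 3246 (0.26, SE 0.094). The small subunit gene Rps27a (0.26, SE 0.099), translated as a fusion with ubiquitin, also had groups without overlap. Among the comparators, Fau had a log2 fold change of 0.11 and Rack1 of −0.036, with overlapping groups.

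A few members had lower values in KO-TRAMP. Rpl10, which joins the large subunit last in the cytoplasm, had 10478, 13734 and 12171 in WT-TRAMP and 12949, 7620 and 9386 in KO-TRAMP. Library 16 was thus inside the WT-TRAMP range and libraries 17 and 18 were below it (log2 fold change −0.31, SE 0.22, adjusted p = 0.507 by limma). Rpl13 had −0.12 (SE 0.12). Measured against the median member of its own library, Rpl10 was 1.92 to 2.09 log2 above it in WT-TRAMP, 1.92 in library 16, and 1.19 and 1.53 in libraries 17 and 18. The interquartile range of members ran from −0.055 to 0.21 in library 17 and from 0.13 to 0.23 in library 16.

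Libraries 17 and 18 also differed from library 16 in other marker genes. The 10 neuroendocrine genes took 0.218% and 0.134% of reads in libraries 17 and 18, against 0.00274% in library 16, where 5 of the 10 were at 0, and 0.00284% to 0.0292% in WT-TRAMP. The 15 proliferation genes took 0.379% and 0.275% against 0.133%, and 0.135% to 0.191% in WT-TRAMP. Matrix genes of fibroblasts were higher in all KO-TRAMP libraries (0.155% to 0.194% of reads, against 0.0364% to 0.0419%), with 3 of 6 passing the test. All 7 macrophage genes were higher as well, with 1 passing the test, at a summed 2599 to 3085 normalised counts against 1215 to 1461, and so were all 5 endothelial genes, with 0 passing (0.00464% to 0.00842% of reads, against 0.00283% to 0.00298%). The part of these cells in the member values was not tested. Against the WT-TRAMP mean, the median member was at 0.18 in library 16 and at 0.073 and 0.082 in libraries 17 and 18, and the latter values lay below that of the WT-TRAMP library 11 (0.096).

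Genes outside the cytosolic ribosome moved in the same direction at this age. Of 78 mitochondrial ribosomal protein genes, 66 were higher, with a median log2 fold change of 0.25, and of 640 other protein-coding genes whose longest coding transcript is at most 1000 bases, 468 were higher, with a median of 0.29. Members with a coding sequence shorter than the member median of 454.5 bases had a median of 0.14, and longer ones 0.092. The same split gave 0.106 and 0.108 in A537T-TRAMP at 30 weeks. At 10 weeks it gave 0.013 and 0.0066 in KO-TRAMP and −0.079 and −0.083 in A537T-TRAMP. In KO-TRAMP at 10 weeks the other short genes had a median of −0.048.

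**Figure D4:**
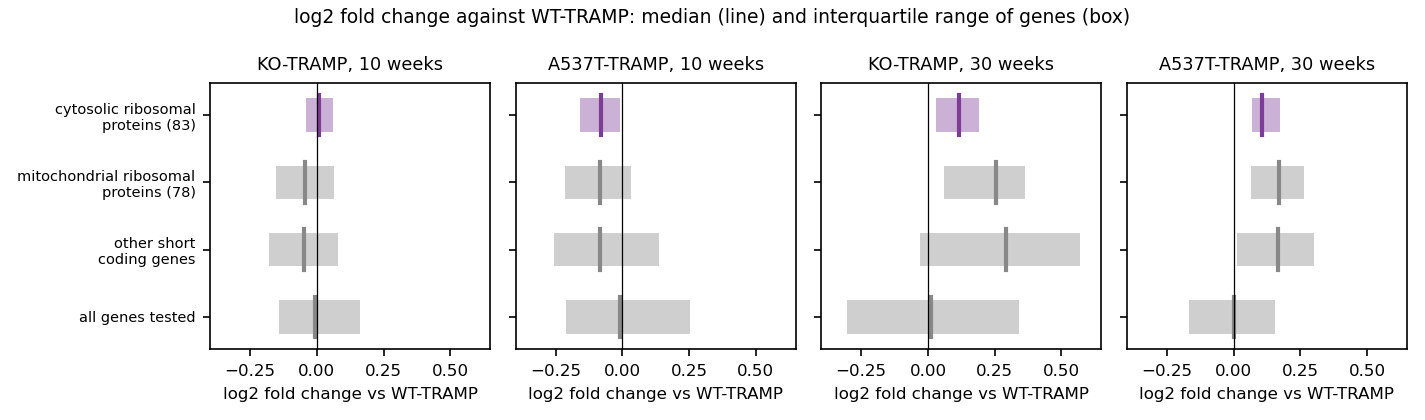
log2 fold change of each line against WT-TRAMP of the same age for cytosolic ribosomal protein genes, mitochondrial ribosomal protein genes, other short protein-coding genes and all genes tested: line, median; box, interquartile range of genes. At 30 weeks the cytosolic median is 0.12 in KO-TRAMP and 0.11 in A537T-TRAMP, below the medians of mitochondrial ribosomal (0.25 and 0.17) and other short genes (0.29 and 0.17).

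In A537T-TRAMP at 30 weeks nearly all members were slightly higher as well. The median log2 fold change was 0.11, with 77 of 83 members higher, against 0.00025 for all genes, of which 50.0% were higher. None of the 83 passed the test by limma with Benjamini-Hochberg adjustment, nor did any other gene (0.0% of 16261), and edgeR and DESeq2 called no member. An unadjusted p under 0.05 was seen in 4 members, all higher, against 7.21% of all genes and 3.98% on the higher side. In 7 members the groups did not overlap, all higher, against 7.36% of all genes, and none lay below, against 6.03%. Leaving out library 13 gave a median of 0.031, and leaving out library 14 gave 0.20. Against the median member of each library, 16 members were higher without overlap and 2 were lower, against 4.35% and 7.69% of all genes. That subtraction narrows the spread of members more than that of other genes, so these shares are again a description only. Library 13 had the highest level of members (median 0.27 above WT-TRAMP) and library 14 a level below WT-TRAMP (−0.080).

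All 6 fibroblast matrix genes were higher in this comparison, with 0 passing the test and a summed 6684 to 11114 normalised counts against 4070 to 4639 in WT-TRAMP. All 7 macrophage genes were also higher, with overlapping sums of 1364 to 2130 against 1177 to 1443, and the part of these cells in the member values was not tested.

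The largest fold change belonged to a P-stalk gene. Rplp1 had 2574, 2950 and 3089 in WT-TRAMP and 4234, 3664 and 3328 in A537T-TRAMP, with all A537T-TRAMP libraries above all WT-TRAMP libraries. Its log2 fold change was 0.38 (SE 0.12, adjusted p = 0.658 by limma). Its near copy Gm10073 was at most 5.96 normalised counts in the same libraries. Rplp2, the partner of Rplp1 in the stalk, had 1483, 1681 and 1769 against 1917, 2065 and 1755 (0.22, SE 0.11), and Rplp0, the base of the stalk, had 0.17 (SE 0.10). In KO-TRAMP at 30 weeks the same 3 genes had log2 fold changes of −0.042 (Rplp1), −0.0088 (Rplp2) and −0.047 (Rplp0).

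Small subunit genes followed. Rps16 had 1512, 1880 and 1824 in WT-TRAMP and 2227, 2083 and 2184 in A537T-TRAMP (0.32, SE 0.11, adjusted p = 0.666 by limma). Rps29 had 2011, 2285 and 2167 against 3083, 2460 and 2620 (0.33, SE 0.11). The groups of both genes did not overlap, and library 14, the lowest of its group for the median member, was above WT-TRAMP in each. Rps10 followed with 0.25 (SE 0.11) and overlapping groups. On the lower side Rpl24 had −0.061 (SE 0.14) and Rps27 −0.038 (SE 0.11). Rps4l, which the annotation lists as a transcribed pseudogene and which is not a member, had between 15.8 and 21.5 normalised counts in WT-TRAMP and between 29.8 and 32.0 in A537T-TRAMP.

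The change of each effect with age was tested as an interaction over both tables of a line. No member passed in either line by limma with Benjamini-Hochberg adjustment, and no gene did (0.0% of 16431 and of 15941). In KO-TRAMP 2 members (Rpl22l1 and Rpl39) had an unadjusted p under 0.05, both positive, against 13.1% of all genes and 6.31% on the positive side, and in A537T-TRAMP none had, against 6.36%. The median difference, 30 minus 10 weeks, was 0.10 in KO-TRAMP, with 62 of 83 members positive, against 50.3% of all genes. Single libraries moved this value: leaving out library 8 gave 0.015, library 3 gave 0.045, library 10 gave 0.055 and library 16 gave 0.069, while omitting library 1, 7 or 11 gave 0.18, 0.17 and 0.16. In A537T-TRAMP it was 0.20, with 82 of 83 positive, against 50.5% of all genes, and it was 0.056 without library 5 and 0.34 without library 4.

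Rpl22l1 had the smallest interaction p in both lines. In KO-TRAMP it went from −0.28 at 10 weeks to 0.23 at 30 weeks, where the counts were 383, 396 and 327 in WT-TRAMP and 494, 386 and 417 in KO-TRAMP. The difference was 0.51 (SE 0.17, adjusted p = 0.295 by limma). In A537T-TRAMP it went from −0.24 to 0.21, a difference of 0.45 (SE 0.22, adjusted p = 0.721 by limma). Both lines share their WT-TRAMP libraries, and at 30 weeks the WT-TRAMP and mutant groups overlapped in both.

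**Figure D5:**
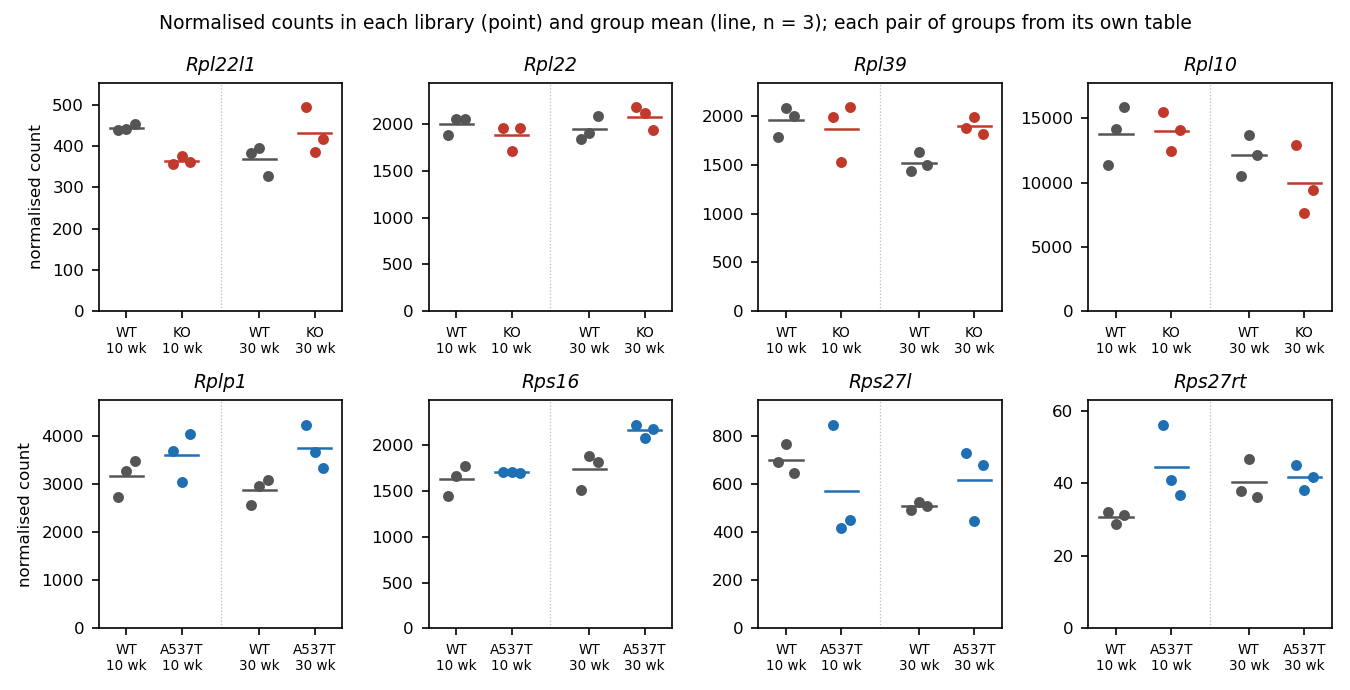
Normalised counts of 8 ribosomal protein genes in each library (points) with group means (lines, n = 3): the upper row shows KO-TRAMP in red and the lower row A537T-TRAMP in blue, beside WT-TRAMP in grey, and each pair of groups comes from its own table. Rpl22l1 lies below WT-TRAMP in all KO-TRAMP libraries at 10 weeks (357 to 377 against 439 to 453), and Rps16 above it in all A537T-TRAMP libraries at 30 weeks (2083 to 2227 against 1512 to 1880).

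Other genes that make or regulate ribosomes were read from lists of known function. Of 56 ribosome biogenesis genes, 0 changed by limma with Benjamini-Hochberg adjustment in any of the 4 comparisons, and their medians were −0.072 and 0.090 for KO-TRAMP at the younger and the older age, and −0.12 and 0.096 for A537T-TRAMP. At an unadjusted p under 0.05 there were 3 and 6 of the 56 for KO-TRAMP, and 1 and 5 for A537T-TRAMP, in the same order. Ltv1, which exports the small subunit, had the smallest p in KO-TRAMP at 30 weeks with a log2 fold change of 0.85 (SE 0.18, adjusted p = 0.228 by limma). Brix1, a factor of large subunit assembly, had 0.65 (SE 0.14, adjusted p = 0.436 by limma) in A537T-TRAMP at 30 weeks.

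Among 22 translation factors and related TOP mRNAs, 14 were higher in KO-TRAMP at 30 weeks, with a median of 0.087. None of the 22 passed the test in any comparison. Of 8 host genes of small nucleolar RNAs, Snhg1 had −0.31 (SE 0.12) in KO-TRAMP at 10 weeks and 0.36 (SE 0.14) at 30 weeks, with groups that did not overlap at either age, and adjusted p-values of 0.730 and 0.364 by limma. None of 15 RNA polymerase I genes and none of 21 genes around mTOR and LARP1 passed the test. Mtor itself had −0.28 (SE 0.13) in KO-TRAMP at 10 weeks, and Rptor, a subunit of mTORC1, had −0.50 (SE 0.16) at 30 weeks. Of the p53 genes that respond to ribosome stress, Cdkn1a had 0.92 (SE 0.39) in KO-TRAMP and 1.02 (SE 0.42) in A537T-TRAMP at 10 weeks, from WT-TRAMP means of 22.1 and 19.3 normalised counts, and neither passed the test.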

How the data were processed

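The authors trimmed reads with Trim Galore 0.4.1 and cutadapt 1.18, aligned them with STAR 2.7.3a to GRCm38, quantified genes with Salmon and normalised with DESeq2 1.26. They deposited 4 tables of normalised counts, a signal equal to an estimated read count divided by a size factor per library, set within each table of 6 libraries. In every library 100% of values were whole multiples of 1 step (within 0.01 reads), and estimated reads were recovered from it. These estimates differed between the lines that share a WT-TRAMP library. The authors also deposited their own fold changes, which were not used. Headers carry no group: the columns shared by both tables of an age were taken as WT-TRAMP. Each line was compared with WT-TRAMP in its own table by limma 3.58.1 (R 4.3.3, eBayes with trend) on log2(normalised count + 1), over genes with a mean of at least 10, with two-sided p-values, Benjamini-Hochberg adjustment over all genes and a threshold of 0.05. Adding 1 understates the change of low genes. edgeR 4.0.16 and DESeq2 1.42.0 on recovered reads, other scalings and leaving out each library were alternatives. Named were all paralogs and P-stalk genes, the 5 members with the smallest p per direction (mean of at least 100), and up to 3 genes per other list. Some of these are given in counts only or are not reported here. Rps4l, Gm10073, the coding-length split and the values against the median member were chosen after seeing the data. Members and lists were chosen with earlier results of these data known. Symbols and exons are from GENCODE (GRCm38). The fits were tested on simulated data with 100 genes changed by 1 on the log2 scale per comparison. At 10 weeks the test recovered 76 (KO-TRAMP) and 25 (A537T-TRAMP), and at 30 weeks 12 (KO-TRAMP) and 68 (A537T-TRAMP). Among 100 genes changed by 2, at least 78 were recovered in each comparison. Smaller changes were not simulated, so not passing the test does not show that a gene was unchanged. Labels do not tie libraries to mice, so p-values measure the spread between libraries.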

Additional observations from a re-analysis of the deposited data

Results flagged for a closer look

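In KO-TRAMP, 3 of the 83 tested members had all 3 libraries below the WT-TRAMP mean of log2 values at 10 weeks and all 3 above it at 30 weeks, as did 4.75% of the 15252 genes tested at both ages, and the difference between ages was tested as an interaction. For Rpl22l1 the effect at 30 minus 10 weeks was 0.51 on the log2 scale (SE 0.17, adjusted p = 0.295 by limma). For Rpl41 it was 0.29 (SE 0.16, adjusted p = 0.441 by limma), and for Rpl22, the parent of Rpl22l1, it was 0.19 (SE 0.13, adjusted p = 0.536 by limma). Rpl22 met the condition narrowly, since at 30 weeks library 18 (1942 normalised counts) lay below the linear WT-TRAMP mean of 1945. None of the 3 passed the test. No member met this condition in A537T-TRAMP, where 2.91% of 15242 genes did. Groups of 3 libraries were not searched for outlying samples.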

How the results depend on the processing

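No paired analysis was possible because the columns carry no replicate numbers. No member was called with a pseudocount of 0.5, without the filter on low values, without the trend, with library totals, TMM scaling or size factors made without members, or with edgeR or DESeq2 (the last 2 and TMM in the comparisons with WT-TRAMP, not in the interactions). Array weights were the exception, with 39 members called in KO-TRAMP at 30 weeks (32 higher, 7 lower), 14 higher in A537T-TRAMP at 30 weeks, 2 for the KO-TRAMP and 3 for the A537T-TRAMP effect at 30 minus 10 weeks. In KO-TRAMP at 30 weeks these weights gave library 18 a weight of 170 and libraries 16 and 17 weights of 0.0970 and 0.161, so those calls rest on library 18. With array weights Elac2 was lower in KO-TRAMP at 30 weeks (−0.27, adjusted p = 0.00983 by limma), and the direction turned for Rpl22 in KO-TRAMP (−0.060) and for Rpl24 (0.049) and Rps27 (0.059) in A537T-TRAMP at 30 weeks. Library totals turned Elac2 in A537T-TRAMP at 30 weeks to −0.013. When each library was left out in turn, the number of members called in KO-TRAMP at 30 weeks was 0 to 1 (Rpl27, without library 16) and stayed at 0 elsewhere. The fold change ran from −0.24 to 0.053 for Rps27l in KO-TRAMP at 10 weeks (0.053 without library 8), from −0.17 to 0.10 for Rpl24 and from −0.10 to 0.067 for Rps27 (0.0095 without library 11) in A537T-TRAMP at 30 weeks. For Elac2 in A537T-TRAMP the range was −0.19 to 0.0064 at the younger age and −0.059 to 0.11 at the older. Median member fold changes lay between −0.070 and 0.098 (KO-TRAMP) and between −0.24 and 0.042 (A537T-TRAMP) at the younger age, and between 0.067 and 0.16 and between 0.031 and 0.20 at the older. With the longest coding transcript as the length, the median level of the 77 core members was 3917 per kilobase at 10 weeks and 3659 at 30 weeks, against 1969 and 1763 with all exons. For the effect at 30 minus 10 weeks they lay between 0.015 and 0.18 in KO-TRAMP and between 0.056 and 0.34 in A537T-TRAMP.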
